A study of Mus musculus with 2 samples.

Results

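Trh, Car4 and Pla2g1b were described in single cells of mouse gastruloids at day 2.5. They were selected by symbol, as 3 of the 32285 genes in the count tables, in barcodes with at least 2500 UMIs, at least 1000 genes and at most 10% mitochondrial UMIs. A UMI (unique molecular identifier) stands for 1 captured RNA molecule, however often it was amplified. These limits left 8707 cells for the library labelled wild type (below, the wild-type-labelled library) and 10587 for the library labelled double knockout (the double-knockout-labelled library), 19294 in all. All 3 genes were proposed as members with earlier results from these libraries in view. Their library ratios and their levels by T, Eomes and Irx3 are therefore given as descriptions, with no test. Where a pair of values is given, the wild-type-labelled library comes first.

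Trh encodes the precursor of thyrotropin-releasing hormone, a small amidated peptide that is cut out of a longer chain and acts on G-protein-coupled receptors. Car4 encodes carbonic anhydrase IV, an enzyme anchored to the outer face of the cell membrane that interconverts carbon dioxide and bicarbonate. Pla2g1b encodes the secreted group IB phospholipase A2, best known from pancreatic juice, which releases a fatty acid from phospholipids. The epiblast is the pluripotent tissue of the early embryo. T and Eomes are T-box transcription factor genes of the primitive streak, where epiblast cells begin to form mesoderm and endoderm, and Irx3 is an Iroquois homeobox gene of the early neural plate.

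Gastruloids are embryonic stem cell aggregates that elongate and pattern themselves along an axis. The R1 mouse embryonic stem cell line was plated at about 300 cells in serum-free N2B27 medium, and CHIR, which raises Wnt signalling by blocking GSK3, was added at 3 µM after 2 days for 12 hours. The first group came from wild type R1 cells and the other from Sp5/8dko cells, a double mutant for the transcription factor genes Sp5 and Sp8. Both groups received CHIR, aggregates were pooled within a group, and the number of mutant clones is not given in the sources used here. Each genotype had 1 library of 10x Genomics 3′ transcripts, so differences between the libraries have no replicate check, and genotype, culture and library cannot be told apart.

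The cells held 97157331 UMIs in the wild-type-labelled library and 97644169 in the double-knockout-labelled library, with medians of 10571 and 8637 per cell. The targeted genes went against the label: Sp5 was at 109 UMIs per 1000000 UMIs in cells (CPM) in the wild-type-labelled library and 479 CPM in the other, and Sp8 at 20.8 and 40.1 CPM. These 3′ counts check a deletion only if it removes the counted end of the transcript. The 2 libraries shared 27 cell barcodes, against 13.57 for independent draws from all possible barcodes. Epiblast markers were widely detected, and 8 of 8 were at 10 CPM or more in each library. After thinning to 4000 UMIs, described below, 98.5% and 98.8% of cells held a UMI of at least 1 of them. These cells include the naive-pluripotent-like, neural-like and extraembryonic-endoderm-like clusters described below. The shares therefore do not show that a given cell is an epiblast cell. Summed levels were 1873 and 2042 CPM for the epiblast list, 303 and 498 CPM for the primitive streak list, 98.6 and 52.0 CPM for the neural list and 36.2 and 54.4 CPM for the stress list. Mesoderm markers summed to 3.602 and 3.64 CPM, with Msgn1 at 0 in both libraries. The part of these shifts in the results below was not tested except where a value is given.

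The promoters of the 3 genes are shown because the genes lie on different chromosomes and differ widely in level. Each run is the 250 bases before the RefSeq start in GRCm38.p6, 5′ to 3′ on the gene's own strand, with motif letters in capitals. Trh (ENSMUSG00000005892) occupies chr6:92242061-92244650 on the minus strand, Car4 (ENSMUSG00000000805) chr11:84957786-84966044 on the plus strand and Pla2g1b (ENSMUSG00000029522) chr5:115466262-115474722 on the plus strand in GENCODE M21. No annotated gene overlaps any of them. The RefSeq start lies upstream of the GENCODE start for Car4 and Pla2g1b.
Trh, chr6:92244651-92244900, minus strand: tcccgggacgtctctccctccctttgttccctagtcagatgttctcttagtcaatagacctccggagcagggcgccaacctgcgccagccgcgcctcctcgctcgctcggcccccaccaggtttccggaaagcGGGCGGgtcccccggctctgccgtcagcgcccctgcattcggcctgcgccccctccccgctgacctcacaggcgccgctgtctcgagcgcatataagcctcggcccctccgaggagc
Car4, chr11:84957504-84957753, plus strand: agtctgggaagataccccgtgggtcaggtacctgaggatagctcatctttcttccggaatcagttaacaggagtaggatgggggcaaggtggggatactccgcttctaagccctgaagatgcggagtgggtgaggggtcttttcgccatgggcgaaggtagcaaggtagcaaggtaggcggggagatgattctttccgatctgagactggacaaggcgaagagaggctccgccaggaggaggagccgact
Pla2g1b, chr5:115465892-115466141, plus strand: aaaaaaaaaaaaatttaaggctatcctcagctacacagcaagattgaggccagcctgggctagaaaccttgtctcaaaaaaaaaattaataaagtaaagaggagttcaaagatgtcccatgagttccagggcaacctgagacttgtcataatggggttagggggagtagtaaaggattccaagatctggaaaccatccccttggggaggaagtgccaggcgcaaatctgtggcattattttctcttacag
Over the window of 300 bases that runs 50 bases past the start, GC content was 67.0% for Trh, 57.3% for Car4 and 45.0% for Pla2g1b, against a median of 52.7% over 32851 promoters. The same windows held 28, 15 and 2 CpG dinucleotides, against a median of 7. Each of 5 motifs was searched on both strands. The GC box GGGCGG, a site type bound by Sp-family factors, had 1 match in the Trh window, starting 117 bases upstream of the start, and 35.7% of all promoters held it. TCACACC (a T-box element, 3.98% of promoters), CTTTGAT (TCF/LEF, 3.73%), GGGTGTGG (a GT box, 3.56%) and AATCCACA (FOXH1, 0.855%) were not found in the 3 windows. These matches describe letters only.

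Trh was an abundant transcript in both libraries and was higher in the double-knockout-labelled library. It stood at 452 CPM (95% interval 448 to 456) in the wild-type-labelled library and at 767 CPM (761 to 772) in the double-knockout-labelled library. The intervals, exact Poisson ones, cover counting error only, and they did not overlap. The log2 ratio (double knockout label over wild type label) was 0.76 (0.75 to 0.78), a 1.70-fold difference. Car4 was at 20.7 CPM (19.8 to 21.6) and 27.1 CPM (26.1 to 28.2), a log2 ratio of 0.39 (0.31 to 0.48). Pla2g1b was at 31.7 CPM (30.6 to 32.9) and 38.1 CPM (36.9 to 39.3), a log2 ratio of 0.26 (0.20 to 0.33). All 3 genes were thus higher in the double-knockout-labelled library, in the order Trh, Car4, Pla2g1b.

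Among 12406 genes with a mean of at least 1 CPM, 0.927% were higher in the double-knockout-labelled library by a log2 ratio of 0.5 or more, and 1.51% were lower by as much. Of the 3 members only Trh passed that limit, and since the members were chosen with this ratio known, nothing is read from the count. Trh ranked 9 from the top by ratio among 7607 genes with a mean of at least 10 CPM, Car4 68 and Pla2g1b 202, where the median gene had a log2 ratio of −0.02. In that set 0.421% of genes were higher and 0.434% lower by the same limit. The genes by which cells were classed also differed between the libraries. T was at 38.8 and 50.7 CPM (log2 ratio 0.39), Eomes at 91.2 and 186 CPM (1.03) and Irx3 at 19.8 and 8.17 CPM (−1.27).

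Transcripts of the 3 genes were also present outside cells. Barcodes with 10 to 100 UMIs held Trh at 322 and 570 CPM, or 1.25 and 1.62 UMIs per 100 such droplets. Car4 was at 16.4 and 19.7 CPM there, or 0.0641 and 0.0561 UMIs per 100 droplets. Pla2g1b was at 37.1 CPM (31.4 to 43.6) and 44.5 CPM (36.6 to 53.5), not below its level in cells, or 0.145 and 0.127 UMIs per 100 droplets. A droplet of this kind held 39.0 and 28.5 UMIs on average, far below the depth of a cell.

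To compare shares of cells at 1 depth, each cell was thinned at random to 4000 UMIs, which 8449 and 10229 cells reached. Trh had a UMI in 57.3% (56.3 to 58.4) of thinned cells in the wild-type-labelled library and in 75.1% (74.3 to 76.0) in the other. Without thinning the shares were 71.9% and 84.4%. Car4 had a UMI in 7.01% and 9.30% of thinned cells (16.5% and 18.4% unthinned), and Pla2g1b in 11.04% and 12.9% (24.2% and 25.2%). Share intervals are exact binomial (Clopper-Pearson). In the neural-like cells described below, which held the least Trh of the larger clusters, 12.4% and 25.6% of thinned cells still had a Trh UMI, at median depths of 8843 and 7530 UMIs.

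Trh was unevenly spread over cells. In the wild-type-labelled library 42.7% of thinned cells had no Trh UMI, 19.0% had 1, 21.0% had 2 to 3, 13.5% had 4 to 7 and 3.91% had 8 or more. In the double-knockout-labelled library the shares were 24.9%, 17.2%, 23.8%, 23.9% and 10.2%. An even spread of the same mean would put a UMI in 83.0% and 95.4% of cells by the Poisson distribution. The variance of Trh was 3.62 and 3.71 times its mean, which ranked 9 of 7008 and 7 of 6970 genes with a mean of at least 0.05 UMI. The median gene had a ratio of 1.02 in each library. The tenth of cells with the most Trh held 43.3% and 34.9% of its UMIs. Car4 had a variance of 1.22 and 1.1998 times its mean and Pla2g1b 1.13 and 1.13. By this measure Car4 ranked 234 and 228 and Pla2g1b 448 and 406 among the same genes.

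**Figure D1:**
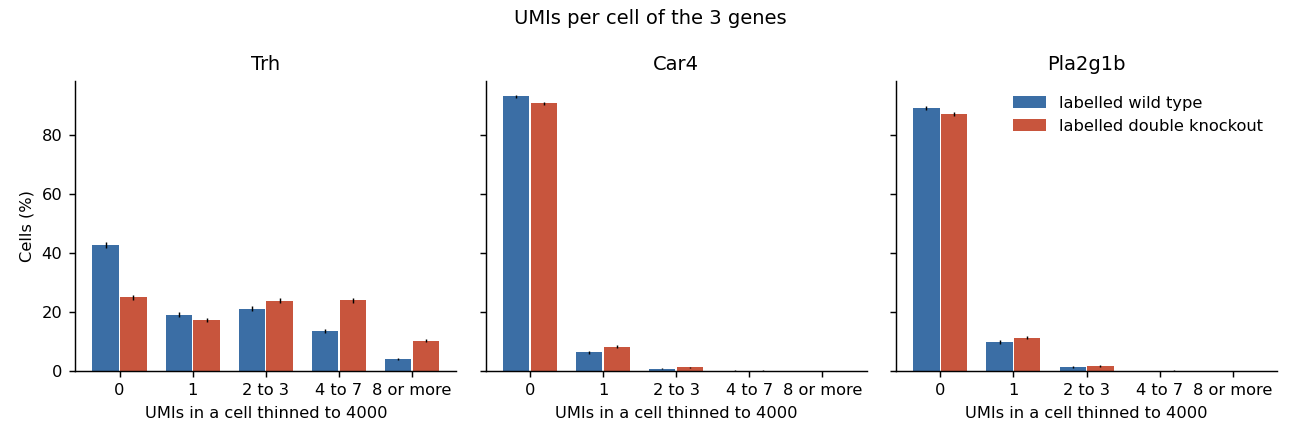
Share of cells (%) by the number of UMIs of Trh, Car4 or Pla2g1b after each cell was thinned to 4000 UMIs, in the wild-type-labelled library (blue, 8449 cells) and the double-knockout-labelled library (red, 10229 cells). Bars are shares and lines their exact binomial 95% intervals. Trh spans all classes, with 3.91% and 10.2% of cells at 8 or more UMIs, while Car4 and Pla2g1b are at 0 in most cells.

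Trh was higher in cells with a T or Eomes UMI and lower in cells with an Irx3 UMI, in both libraries. In the wild-type-labelled library it was at 603 CPM in 1036 T-positive cells and 432 CPM in T-negative cells (log2 difference 0.48, 0.44 to 0.52). In the double-knockout-labelled library the levels were 892 CPM in 1650 T-positive cells and 746 CPM in the rest (0.26, 0.23 to 0.28). By Eomes, Trh was at 586 against 408 CPM (0.52, 0.49 to 0.55) in the wild-type-labelled library. In the other library it was at 849 against 707 CPM (0.26, 0.24 to 0.28). The share of thinned cells with a Trh UMI moved the same way, at 74.0% against 52.0% and 81.8% against 70.0% by Eomes. By Irx3 the level was 250.4 against 468 CPM (−0.90, −0.98 to −0.83) in 564 positive cells and at 425 against 782 CPM (−0.88, −0.96 to −0.80) in 326. Positive means at least 1 UMI after thinning, and levels use all UMIs of those cells.

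With more Irx3 the Trh level was lower still. In the wild-type-labelled library Trh went from 468 CPM at 0 Irx3 UMIs to 266 at 1, 163 at 2 and 81.1 at 3 or more, the last in 10 cells. In the double-knockout-labelled library it went from 782 to 451 CPM, then to 147 CPM in 23 cells with 2 Irx3 UMIs. In 5 cells with 3 or more, no Trh UMI was seen, with an upper 95% limit of 94.7 CPM. With cells called Irx3-positive only at 2 UMIs, the difference was −1.59 and −2.63 on the log2 scale. With more T the order differed between the libraries. In the wild-type-labelled library it was at 432, 599.8 and 703 CPM at 0, 1 and 2 T UMIs and at 311 CPM in the 33 cells with 3 or more. In the other library the same classes were at 746, 884, 924 and 936 CPM.

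Car4 was higher in Eomes-positive cells and close to level by T. By Eomes it was at 26.1 against 18.8 CPM (log2 difference 0.47, 0.33 to 0.61) in the wild-type-labelled library and 31.3 against 23.8 CPM (0.40, 0.29 to 0.51) in the other. Over 0, 1, 2 and 3 or more Eomes UMIs, Car4 was at 18.8, 23.9, 29.9 and 34.9 CPM and at 23.8, 29.6, 33.9 and 33.2 CPM. By T the differences were −0.10 (−0.30 to 0.09) and 0.05 (−0.10 to 0.20), and both intervals hold 0. With cells thinned to 8000 UMIs they were 0.08 (−0.08 to 0.23) and 0.20 (0.07 to 0.34). By Irx3, Car4 was at 18.0 against 20.9 CPM (−0.21, −0.50 to 0.06) in the wild-type-labelled library and 17.4 against 27.4 CPM (−0.65, −1.09 to −0.26) in the other. A single cell with 25 Car4 UMIs and 2 Irx3 UMIs after thinning bears on the first of these. Without cluster 9, the cluster that holds it, the difference was −0.56 (−0.89 to −0.26), and with all clusters thinned to 8000 UMIs it was −0.75 (−1.01 to −0.51). The direction turned when 2 Irx3 UMIs were asked for, at 1.24 (0.75 to 1.67), in a class that includes this cell.

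Pla2g1b was lower in Irx3-positive cells and did not share the pattern of Trh by T. By Irx3 it was at 22.5 against 32.3 CPM (log2 difference −0.51, −0.77 to −0.28) and 22.1 against 38.5 CPM (−0.79, −1.17 to −0.44). The second of these was −0.39 when cells were thinned to 8000 UMIs and −1.85 when 2 Irx3 UMIs were asked for. By T it was at 30.02 against 31.8 CPM (−0.08, −0.24 to 0.07) and 34.0 against 38.7 CPM (−0.19, −0.32 to −0.06), and the latter was 0.00 with thinning to 8000 UMIs. By Eomes it was at 36.1 against 30.1 CPM (0.27, 0.15 to 0.38) in the wild-type-labelled library and 37.2 against 38.6 CPM (−0.05, −0.15 to 0.04) in the other. The first was 0.16 (−0.04 to 0.35) when 2 Eomes UMIs were asked for. Eomes and Irx3 each overlap an annotated gene on the opposite strand, Gm33460 and Irx3os, and the strand setting of the counting is not given in the sources used here.

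**Figure D2:**
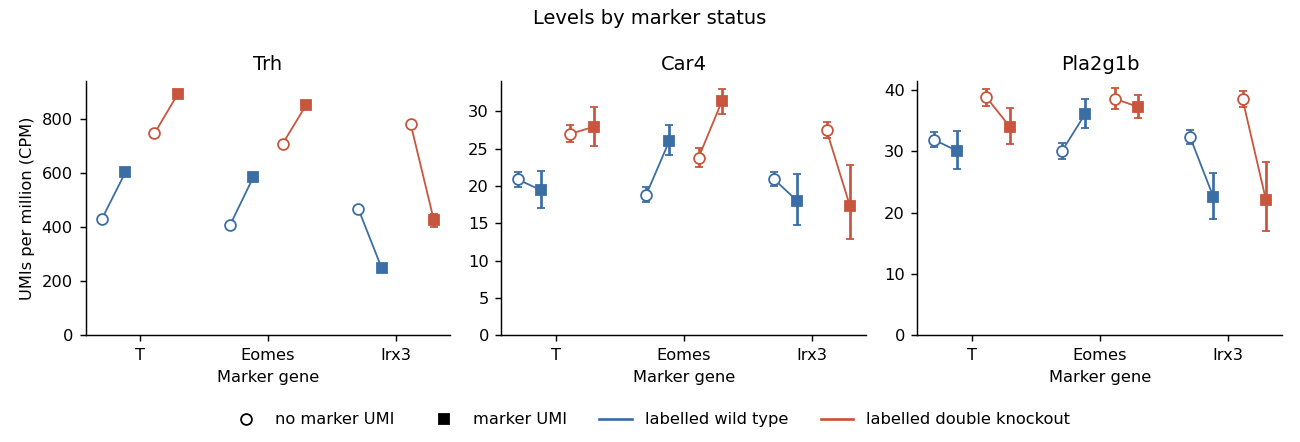
Level (CPM, linear axes from 0) of Trh, Car4 and Pla2g1b in cells without (open circles) and with (filled squares) a UMI of T, Eomes or Irx3, in the wild-type-labelled library (blue) and the double-knockout-labelled library (red). Bars are exact Poisson 95% intervals. For Trh the filled symbols lie above the open ones for T and Eomes and below them for Irx3, at 250.4 against 468 CPM and 425 against 782 CPM.

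Cells with no UMI of the 3 marker genes after thinning made up 5270 and 4884 of the thinned cells and still held much Trh, at 399.7 and 696 CPM. The library ratio among them was 0.80 (0.78 to 0.82), so the higher Trh in the double-knockout-labelled library was also present in this class. The class is not free of the markers, since thinning removes UMIs. Eomes had a UMI in 24.4% and 43.4% of thinned cells but in 43.4% and 61.8% of cells without thinning. Among cells positive for Eomes alone Trh was at 589 and 845 CPM (0.52, 0.49 to 0.55), and for T alone at 615 and 894 CPM (0.54, 0.49 to 0.60). Cells with both T and Eomes were at 600.0 and 894 CPM (0.57, 0.51 to 0.64), close to either alone. Cells positive for Irx3 alone had the least of the classes with over 100 cells, at 202 and 349 CPM (0.79, 0.64 to 0.93). In the cells with no marker UMI after thinning Car4 was at 19.3 and 24.0 CPM (0.31, 0.19 to 0.44) and Pla2g1b at 30.9 and 39.3 CPM (0.35, 0.25 to 0.44). In cells positive for Eomes alone, Pla2g1b was at 37.8 and 39.5 CPM, with a ratio whose interval holds 0 (0.06, −0.07 to 0.20).

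Read from the side of Trh, the same gradient appeared. From cells with 0 to cells with 8 or more Trh UMIs, Irx3 went from 30.9 to 5.96 CPM and from 16.6 to 3.86 CPM. The neural list, which includes Irx3, went from 148 to 42.2 CPM and from 87.0 to 32.3 CPM. Eomes went from 57.0 to 127 CPM and from 139 to 202 CPM, and the epiblast list from 1683 to 2107 CPM and from 1779 to 2199 CPM. Not every gene of the epiblast list was higher with Trh, as given for Sox2 below. The stress list also moved with Trh, from 30.9 to 50.9 CPM and from 44.3 to 70.2 CPM, and its part in the gradient was not tested. From cells with 0 to cells with 2 or more Car4 UMIs (65 and 124 cells), the epiblast list went from 1858 to 2253 CPM and from 2025 to 2425 CPM. The extraembryonic endoderm list moved by a larger factor over the same Car4 classes, from 10.8 to 109.7 CPM and from 9.67 to 80.9 CPM. The definitive endoderm list went from 4.23 to 15.1 CPM and from 8.66 to 20.8 CPM. Over 0, 1 and 2 or more Car4 UMIs the naive pluripotent list did not rise steadily. It was at 70.0, 55.1 and 54.2 CPM and at 56.2, 48.0 and 60.9 CPM. The last interval (39.2 to 73.0 and 47.7 to 76.5) holds the first value in each library. In cells with 0, 1 and 2 or more Pla2g1b UMIs (109 and 168 cells in the last class), the naive pluripotent list was at 67.6, 79.3 and 74.5 CPM and at 55.3, 55.3 and 71.2 CPM. The interval of the last class in the wild-type-labelled library (60.3 to 91.1) holds the value at 0 UMIs. From 0 to 2 or more Pla2g1b UMIs, the extraembryonic endoderm list went from 12.7 to 4.71 CPM and from 11.6 to 7.43 CPM. In the double-knockout-labelled library the last interval (3.84 to 13.0) holds the first value.

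The 3 genes were found in the same cells somewhat more often than the product of their shares. Car4 and Pla2g1b were found together in 99 and 174 thinned cells, 1.51 (1.23 to 1.84) and 1.42 (1.22 to 1.64) times the product. Trh and Car4 shared 384 and 768 cells, 1.13 (1.02 to 1.25) and 1.07 (1.00 to 1.15) times, and over cells above the chromosome limits described below both intervals held 1. Trh and Pla2g1b shared 604 and 1035 cells, 1.13 (1.04 to 1.22) and 1.04 (0.98 to 1.11) times, the last with an interval that holds 1. These intervals take the product as fixed, and for a gene as widespread as Trh the ratio cannot rise far. Pla2g1b had a UMI in 12.5% of Trh-positive against 9.13% of Trh-negative cells, and in 13.5% against 11.2%. Odds ratios were 1.41 and 1.43 for Trh with Car4 and 1.42 and 1.24 for Trh with Pla2g1b. For Car4 with Pla2g1b they were 1.69 and 1.59. All 3 were present in 70 and 140 cells, 0.829% and 1.37% against products of 0.444% and 0.901%, and none of them in 36.7% and 20.6%. For the pair of Car4 and Pla2g1b the ratio was 1.501 and 1.43 in Eomes-positive cells and 1.48 and 1.43 in Eomes-negative cells. For Trh and Car4 it was 0.97 and 1.02 in Eomes-positive cells, with intervals that hold 1, and 1.18 and 1.12 in Eomes-negative cells.

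Cells were grouped into clusters with the 3 genes left out, and the levels differed widely between clusters. The primitive-streak-like cluster 2, led by Foxa2, Mixl1, Eomes and Gsc (838 and 1882 cells), held Trh at 657 and 903 CPM. Clusters 0 and 1, the largest and unnamed, were at 514 and 742 CPM and at 599.6 and 926 CPM. Cluster 1 had the cell cycle genes Cdc6, Ccne1 and Ccne2 among its 10 leading genes. It was thus still marked by the cell cycle, although genes of that process were left out of the clustering. The part of the cell cycle in these levels was not tested. The naive-pluripotent-like cluster 5, led by Dppa5a and Rhox5 (445 and 607 cells), was at 583 and 756 CPM. The lowest Trh among clusters of 100 or more cells in each library was in the neural-like cluster 7, at 85.5 and 176 CPM. That cluster was led by Onecut2, Sox1 and Sox21. Next was cluster 3, led by Irx3, Gbx2 and Meis2, at 146 and 272 CPM. Cluster 3 also had 4 of 7 neural markers, 3 of them among its 10 leading genes, against 6 of 7 in cluster 7. Cluster 6, unnamed and of low depth (medians of 3674 and 3226 UMIs), was at 199.7 and 328 CPM. Its leading genes included the mitosis genes Ube2c, Aurka and Aurkb. In cluster 2, 19.9% and 20.7% of cells had a doublet score among those marked for removal in the alternative, the highest share of any cluster.

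Car4 and Pla2g1b were highest in another cluster than Trh. Trh was highest in cluster 2 in the wild-type-labelled library and in cluster 1 in the other, among clusters of 100 or more cells. In the smaller cluster 8, led by Ddit3 and Pmaip1 (39 and 80 cells), Trh was at 390 and 940 CPM (862 to 1022 for the latter). Among clusters of 100 or more cells, Car4 peaked in the naive-pluripotent-like cluster 5 at 51.6 CPM (45.7 to 58.2) and 49.0 CPM (43.5 to 55.0). Pla2g1b also peaked there, at 74.6 CPM (67.4 to 82.4) and 77.6 CPM (70.7 to 85.1), where 23.2% and 23.6% of thinned cells had a UMI. In cluster 2 Car4 was at 31.2 and 31.9 CPM and Pla2g1b at 40.2 and 42.1 CPM. In cluster 3 Car4 was at 8.30 and 7.01 CPM and Pla2g1b at 16.6 and 12.5 CPM. Cluster 4, led by Nfib and Cdx2, held 1447 and 490 cells, with Trh at 349.9 and 653 CPM but Car4 at 10.1 and 11.5 CPM and Pla2g1b at 11.1 and 13.2 CPM.

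**Figure D3:**
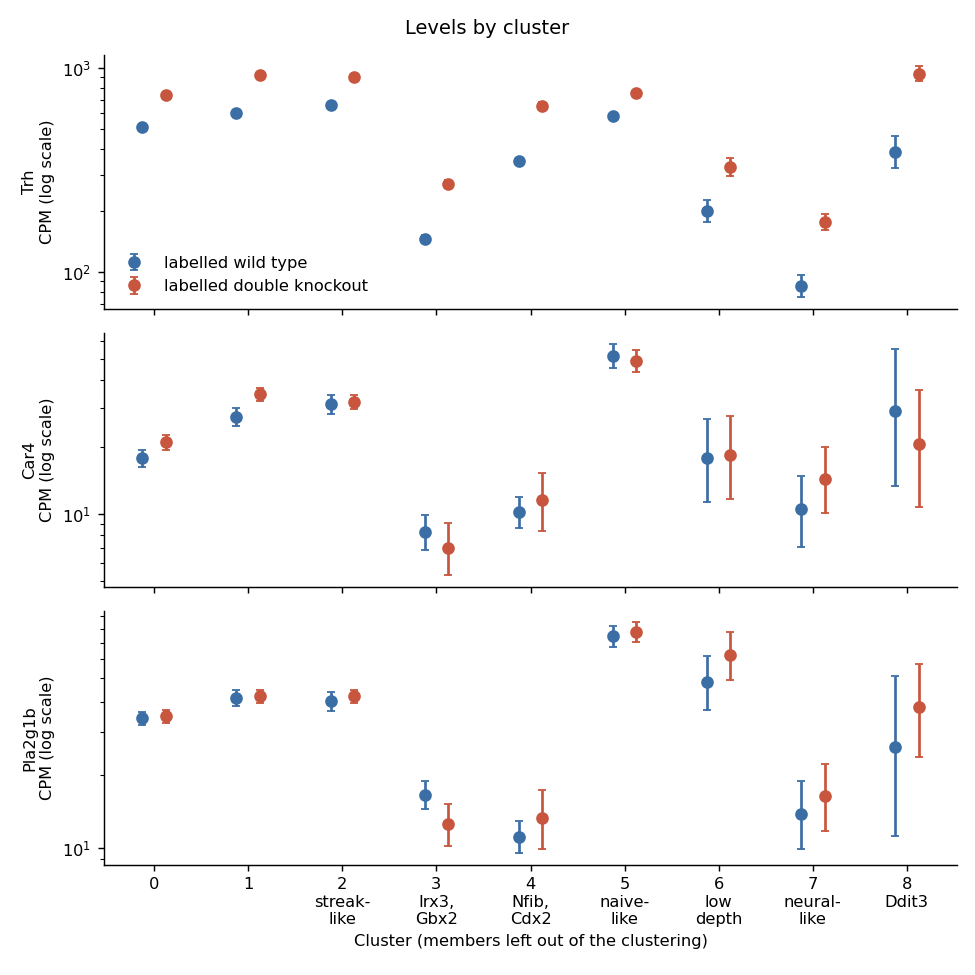
Level (CPM, log axes) of Trh, Car4 and Pla2g1b in clusters 0 to 8 of the wild-type-labelled library (blue) and the double-knockout-labelled library (red), with exact Poisson 95% intervals. Red lies above blue in all 9 clusters for Trh, while the colours overlap in most clusters for Car4 and Pla2g1b. Clusters 3, 4 and 7 are low for Car4 and Pla2g1b, and cluster 5 is highest for both.

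Within clusters Trh remained higher in the double-knockout-labelled library. In 8 of 8 clusters of 100 or more cells in each library its log2 ratio was above 0 with an interval that excludes 0, from 0.37 in cluster 5 to 1.04 in cluster 7. For Pla2g1b the interval held 0 in 7 of the 8 clusters and lay below 0 in cluster 3 (−0.40, −0.76 to −0.06). In clusters 0, 1 and 2 its ratios were 0.03, 0.02 and 0.07. For Car4 the interval held 0 in 6 of 8 clusters and lay above 0 in cluster 0 (0.24, 0.06 to 0.41) and cluster 1 (0.33, 0.17 to 0.50). With each cluster given the same share in both libraries the ratios were 0.59 for Trh, 0.14 for Car4 and 0.036 for Pla2g1b. Without cluster 4 they were 0.71, 0.30 and 0.14. Clusters 2 and 3 have Eomes and Irx3 among their leading genes, and these differed between the libraries, so cluster membership itself moves with the library. No difference between clusters in these ratios was tested.

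**Figure D4:**
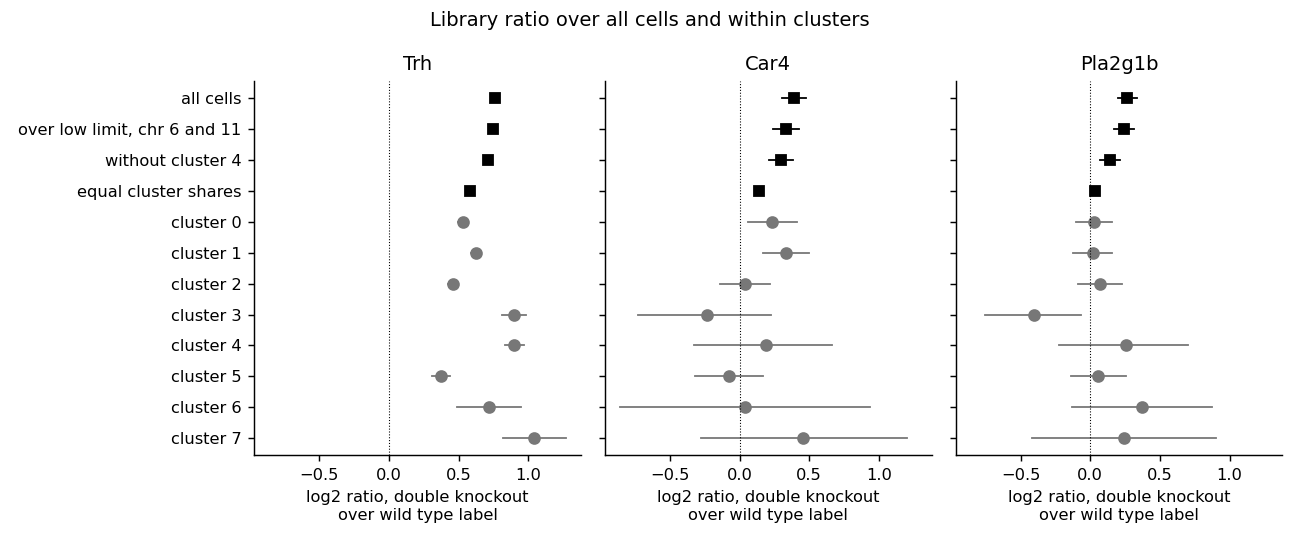
Log2 ratio of the double-knockout-labelled library over the wild-type-labelled library for Trh, Car4 and Pla2g1b, over all cells and under 3 changes of the cells (black squares) and within clusters 0 to 7 (grey circles). Lines are exact conditional 95% intervals, which the equal-share value does not have. Trh stays right of 0 in every row, and Pla2g1b is at 0.26 over all cells and 0.036 at equal shares.

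Trh lies on chromosome 6 and Car4 on chromosome 11, and some cells had a low share of their UMIs from these chromosomes. A cell was called low at 0.8 times the median share or less, with the members left out of the share. Only the 8449 and 10229 cells with at least 4000 UMIs were classed. On chromosome 6, 21.4% and 18.2% of cells were low, and on chromosome 11, 17.9% and 5.87%. The 2 classes overlap, since 14.3% and 2.45% of cells were low on both. Trh was at 312 CPM in cells low on chromosome 6 against 489 CPM in the others (log2 difference −0.65, −0.69 to −0.61) in the wild-type-labelled library. In the other library it was at 501 against 828 CPM (−0.72, −0.76 to −0.69). Car4 was at 10.5 against 22.5 CPM (−1.10, −1.35 to −0.87) by chromosome 11 and at 12.2 against 27.9 CPM (−1.19, −1.60 to −0.82). In these overlapping classes, levels also differed by the chromosome a gene does not lie on. By chromosome 11, Trh differed by −0.48 (−0.52 to −0.44) and −0.24 (−0.29 to −0.19). By chromosome 6, Car4 differed by −0.42 (−0.61 to −0.25) and −0.12 (−0.28 to 0.03). In cells low on chromosome 11 only, Trh was at 387 and 827 CPM, against 493 and 828 CPM in cells over both limits. In cells low on chromosome 6 only, Car4 was at 25.9 and 27.5 CPM, against 22.2 and 28.0 CPM. Of these, only Trh in the wild-type-labelled library was clearly lower in cells low on the other chromosome only. T was also higher in cells low on chromosome 11, at 71.1 against 33.2 CPM and 107 against 48.1 CPM. Most cells low on chromosome 11 fell in cluster 4, where 92.9% and 93.0% of cells were low. Outside cluster 4, Car4 by chromosome 11 was at 20.5 against 22.7 CPM (−0.12, −0.72 to 0.37) and 16.6 against 28.0 CPM (−0.72, −1.49 to −0.11).

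Pla2g1b lies on neither chromosome and was low in both of these overlapping classes of cells. It was at 15.7 against 35.5 CPM by chromosome 6 (log2 difference −1.18, −1.36 to −1.01) and at 17.7 against 42.2 CPM (−1.25, −1.43 to −1.08). By chromosome 11 it was at 10.7 against 35.4 CPM (−1.72) and 13.2 against 39.2 CPM (−1.56). Chromosome 5, where Pla2g1b lies, was not low in these cells, with a median share of 1.01 to 1.05 times that of all cells. Outside cluster 4, Pla2g1b in cells low on chromosome 6 was at 24.3 against 36.5 CPM (−0.59, −0.82 to −0.37) and 18.4 against 43.0 CPM (−1.22, −1.41 to −1.05). Over cells above the limit on both chromosomes the library ratios were 0.75 for Trh, 0.33 for Car4 and 0.24 for Pla2g1b.

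**Figure D5:**
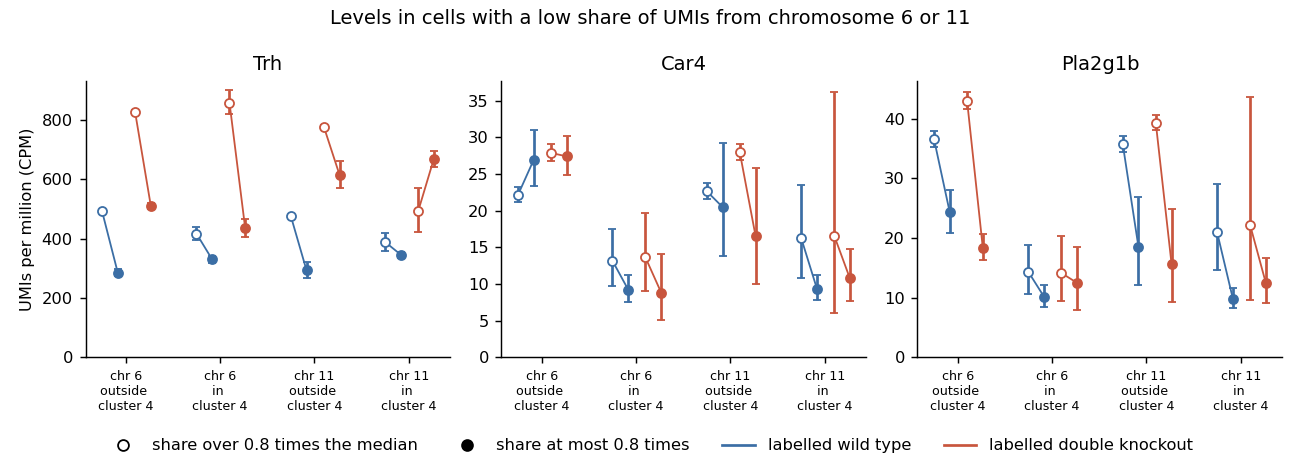
Level (CPM, linear axes from 0) of Trh, Car4 and Pla2g1b in cells with a share of UMIs from chromosome 6 or 11 over 0.8 times the median (open) or at most that (filled), outside and in cluster 4, in the wild-type-labelled library (blue) and the double-knockout-labelled library (red). Bars are exact Poisson 95% intervals. Outside cluster 4, filled symbols for chromosome 6 are lower for Trh (285 against 492 CPM, 509.9 against 827 CPM) and Pla2g1b, while for Car4 they are at 27.0 against 22.2 CPM and 27.4 against 27.9 CPM.

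The genes most like each member across cells were ranked by Pearson r between log2(1 + UMIs per 10000) in thinned cells, taking the lower r of the libraries over 6511 genes. Cells of 1 library share their source and the counts are sparse, so r is small throughout and is given as a description. Trh was most like L1td1 (r of 0.20 and 0.15), Eomes (0.18 and 0.14), Dnmt3b (0.13 and 0.14), Fgf5 (0.14 and 0.13) and Epcam (0.13 and 0.12), of which Dnmt3b and Fgf5 are epiblast genes. The middle 98% of genes lay between −0.059 and 0.069 in the wild-type-labelled library. Trh was least like Ptn (−0.22 and −0.18), Tmsb4x (−0.15 and −0.15) and Gbx2 (−0.14 and −0.13). Sox2, which is also on the epiblast list, went the other way from Dnmt3b and Fgf5 and ranked 6 from the lowest (−0.10 and −0.12). It was at 24.9 CPM in Trh-positive and 45.1 CPM in Trh-negative cells, and at 19.9 and 39.9 CPM in the double-knockout-labelled library. L1td1 was at 155 CPM in Trh-positive and 87.8 CPM in Trh-negative cells of the wild-type-labelled library, and at 179 and 121 CPM in the other.

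Car4 and Pla2g1b shared Dppa5a, a gene of pluripotent cells, among their most alike genes. For Car4 these were Dppa5a (0.081 and 0.078), Rhox5 (0.081 and 0.075), Fgf8 (0.085 and 0.069), Emb (0.068 and 0.076) and Ldha (0.063 and 0.074). For Pla2g1b they were Fth1 (0.12 and 0.13), Dppa5a (0.12 and 0.0996), Mkrn1 (0.085 and 0.087), Hsp90aa1 (0.085 and 0.068) and Serbp1 (0.058 and 0.066). Mkrn1 and Serbp1 lie on chromosome 6, and over cells above both chromosome limits they ranked 4 and 42. Car4 and Pla2g1b each ranked 9 in the other's order (0.053 and 0.054). Mdk, Ptn and Tmsb4x were least like Car4, and Mdk, Stmn2 and Tmsb4x least like Pla2g1b.

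Besides Trh itself, no listed gene of the TRH axis passed the ratio limit between the libraries, which few genes of any kind did. Of 12 other genes of the TRH axis 8 had a mean of at least 1 CPM, and 0 were higher and 0 lower by a log2 ratio of 0.5. Of all genes, 0.927% were higher and 1.51% lower, so 0 of 8 does not set the list apart. The median ratio was −0.09 against −0.03 over all genes. The prohormone-cutting enzyme genes Pcsk2 (22.8 and 20.1 CPM) and Furin (9.34 and 10.1 CPM) were detected. So were the carboxypeptidase genes Cpe (34.6 and 32.1 CPM) and Cpd (35.3 and 33.7 CPM) and the amidating enzyme gene Pam (13.8 and 11.3 CPM). The log2 ratios of Pam (−0.28, −0.39 to −0.16), Pcsk2 (−0.18, −0.27 to −0.09) and Cpe (−0.11, −0.18 to −0.04) were below 0 with intervals that exclude it. Among the less abundant genes, the same held for Scg5 (−0.35, −0.59 to −0.12), while Qpctl was above 0 (0.31, 0.07 to 0.55). The receptor gene Trhr had 1 UMI in each library and Trhr2 had 0 in each, and Trhde, which encodes the degrading enzyme, had 4 and 3, too few to compare.

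Of 15 other carbonic anhydrase genes 6 had a mean of at least 1 CPM and 0 passed the limit in either direction, with a median ratio of −0.03. Car2, which encodes a cytosolic form, was at 64.9 and 66.8 CPM and so above Car4 in this 3′ count, where each molecule is counted once whatever its length. Car14 was at 15.1 and 16.2 CPM. Of 12 bicarbonate and proton transport genes 10 had a mean of at least 1 CPM, and 1 was higher, Slc16a3 (22.2 and 34.0 CPM, 0.62), which encodes a lactate and proton carrier. Its partner Bsg was at 532 and 549 CPM and the bicarbonate transporter gene Slc4a7 at 42.3 and 43.2 CPM. Of 18 symbols listed for phospholipase A2 and related genes 16 were in the table and 8 had a mean of at least 1 CPM, and 1 was higher, Pla2g10 (2.55 and 3.77 CPM, 0.56). Pla2g12a was at 71.9 and 76.5 CPM and Plaat3 at 45.9 and 41.7 CPM. Each count of 0 or 1 stands beside the 0.927% of all genes that were higher and the 1.51% that were lower by this limit. In lists this short, nothing is read from these counts.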

How the data were processed

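Single-cell RNA was measured in 2 libraries, 1 per genotype, with the 10x Genomics 3′ v3.1 kit. The authors deposited whole-number UMI counts per gene and barcode for 6794880 barcodes a library. The submitters' processing notes name STARsolo, STAR 2.7.9a, Cell Ranger 8.0.1, Seurat 5.1.0 and mm10, with no role given. The labels count 9238 and 11190 cells with medians of 5333 and 5398 genes, whereas the limits used here left 8707 and 10587 cells with medians of 3275 and 2884 genes.

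The members and gene lists were chosen with earlier results of these data known. Alike genes are the 5 with the highest and 3 with the lowest r. Listed genes were named where their mean was at least 5 CPM. Sox2, Pla2g10, Scg5, Qpctl, the receptor genes, Trhde and the leading genes of clusters were named after their values were seen. Barcodes passing the limits were summed per library and given as CPM, with Poisson 95% intervals. Ratios used a pseudocount of 0.5 UMIs and exact conditional intervals. These cover counting error only, and no test was made because each genotype had 1 library. Shares used cells thinned to 4000 UMIs (seed 1). Cells were clustered (scanpy 1.11.5, Leiden resolution 0.5, 2000 variable genes, 30 components, 15 neighbours) leaving out the members, Sp5, Sp8 and genes of the cell cycle, the mitochondria, the ribosome and the Y chromosome. Each named cluster had at least 3 detected markers of its list. Cluster 3, with 4 of 7 neural markers, also reached this limit and was left without a name. Doublets were kept, and removing the 606 and 897 cells with the highest doublet scores was an alternative, as were TMM factors (edgeR 4.0.16). The interval calculation was checked on counts drawn from the Poisson distribution it assumes. That check does not cover spread between cells or libraries beyond this distribution.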

Additional observations from a re-analysis of the deposited data

Results flagged for a closer look

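Each pair of values below had opposite signs in the libraries, and the difference between the libraries was not tested. Car4 in T-positive over T-negative cells differed by −0.10 on the log2 scale in the wild-type-labelled library and by 0.052 in the double-knockout-labelled library. Both intervals hold 0. Thinned to 8000 UMIs, the first was 0.08 and the second 0.20. Pla2g1b in Eomes-positive over Eomes-negative cells differed by 0.27 in the wild-type-labelled library, with an interval above 0, and by −0.051 in the other, with an interval that holds 0. With 2 Eomes UMIs asked for, the first was 0.16, with an interval that holds 0.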

How the results depend on the processing

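All values are log2 differences unless named, and none whose interval excluded 0 in the report changed sign. Car4 by Irx3 in the wild-type-labelled library, whose interval held 0, took both signs. The library ratio of Trh was 0.79 with TMM factors, which shifted all genes by 0.03. Without cluster 4 the ratios of Trh, Car4 and Pla2g1b were 0.71, 0.30 and 0.14, and with equal cluster shares 0.59, 0.14 and 0.036. Asking for 2 marker UMIs gave 0.37 for Trh by Eomes and −1.59 for Trh by Irx3 in the wild-type-labelled library, and −2.63 for Trh by Irx3 in the other. It gave 0.67 for Car4 by Eomes and 1.24 for Car4 by Irx3 in the wild-type-labelled library, the latter a class that holds the cell with 25 Car4 UMIs. It gave −0.34 for Pla2g1b by T and −1.85 by Irx3 in the double-knockout-labelled library.

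Thinning to 8000 UMIs gave 0.42 for Trh by T, 0.65 for Trh by Eomes and −0.75 for Car4 by Irx3 in the wild-type-labelled library. In the double-knockout-labelled library it gave 0.31 for Trh by Eomes, −0.79 for Trh by Irx3, 0.20 for Car4 by T, −0.00084 for Pla2g1b by T and −0.39 for Pla2g1b by Irx3. Removing the highest doublet scores gave 0.52 for Trh by T and −1.03 for Trh by Irx3 in the wild-type-labelled library. Cells above both chromosome limits gave 0.55 for Trh by T there. Leaving out cluster 9 gave −0.56 for Car4 by Irx3 there. Genes past the ratio limit numbered 302, but 65 at a mean of at least 10 CPM and 5812 with no limit other than 1 UMI. The cause of these shifts was not tested. Some smaller shifts also moved an interval across 0. With 2 marker UMIs, intervals held 0 for Pla2g1b by Eomes in the wild-type-labelled library (0.16) and Car4 by Irx3 in the other (−0.88). Over cells above the chromosome limits they held 0 for Trh with Car4 (0.16 and 0.09, log2 of observed over product) and for Pla2g1b by T in the double-knockout-labelled library (−0.11), and excluded 0 for Car4 by T there (0.18). Without thinning, Trh with Pla2g1b excluded 0 there (0.095). These are among 116 values that moved by less than their counting interval, or, for the count, by less than 1.5 times. No paired analysis was possible because each genotype had 1 library. The choices of clusters and of cluster shares were added after seeing the data. Counts of Car4 and Pla2g1b limit what can be seen in classes under 100 cells.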

Other observations

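Cluster 9, an extraembryonic-endoderm-like group of 23 and 22 cells, held Trh unequally. The wild-type-labelled library had 1 Trh UMI there, and 0 of 22 cells thinned to 4000 UMIs had one, with an upper 95% limit of 15.4% on the share of cells with a UMI at that depth. The double-knockout-labelled library had 204 UMIs, of which 201 lay in 7 cells with 6 to 48 UMIs each. Those 7 cells had a median of 1 UMI of the extraembryonic endoderm markers, against 17 in the other 15. Their epiblast markers summed to 1143 CPM, against 241 CPM. Car4 was frequent in cluster 9, with 46 UMIs in 9 of 23 cells (176 CPM) and 21 UMIs in 10 of 22 cells (92.2 CPM), while Pla2g1b had 1 and 0 UMIs. The highest Car4 count of any cell in the wild-type-labelled library, 25 UMIs, was in this cluster, and the next highest was 9.

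Just outside the UMI limit, barcodes with 2000 to 2500 UMIs held Trh at 245 and 332 CPM (54 and 83 barcodes). Just inside, at 2500 to 3000 UMIs, it was at 222 and 359.7 CPM (88 and 139 barcodes). Both lay below the levels over all cells.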
